A study of Mus musculus with 6 samples.

Results

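Signals that keep migrating germ cells alive were followed in mouse primordial germ cells made in culture, through Kit and its ligand Kitl, Cxcr4 and its ligand Cxcl12, the LIF receptor chains Lifr and Il6st, and the cell adhesion gene Cdh1. Members were all probes that the array's annotation ties to these gene names, outside control spots. The rule listed 8 genes. It found 13 probes of 7 genes in 40 spots, of 41174 probes of 27677 gene names in 43379 spots in all. Lif, the ligand of Lifr, had 0 rows under its name and was not analysed here. All 13 probes passed the filter on dim probes, which kept probes that the scanner software marked well above background on 2 or more of the 6 arrays.

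RNA came from male cells of mixed C57BL/6 and 129SV background that carried a GFP reporter of Oct4. All groups, controls included, carried this reporter and a vector with a tdTomato marker. Control cells held a control vector, and knockdown cells held 1 of 2 short hairpin vectors against Dazl, an RNA-binding protein of germ cells. The embryonic stem cells had been separated from feeder cells by plating on plastic, then differentiated on gelatin for 9 or 12 days. Cells positive for both colours were sorted, so the cells around them in the dish were not measured. Each vector at each day was 1 sample on 1 array, which gave 2 control and 4 knockdown arrays, or 3 arrays per day. The labels do not state separate cultures, so every p-value rests on the spread among these 6 samples, which may be technical. In such bulk RNA, fewer cells of a type and less RNA per cell cannot be told apart.

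KIT is a receptor tyrosine kinase on primordial germ cells, and its ligand KITL, also called steel factor or stem cell factor, is made by somatic cells along their route and in the genital ridge. Loss of either depletes germ cells in mice. CXCR4 is the germ cell receptor for the chemokine CXCL12, which guides the cells to the gonad and supports their survival. LIF acts through LIFR paired with IL6ST, known as gp130, and has long been added to cultures of embryonic stem cells and germ cells. CDH1, or E-cadherin, joins neighbouring cells and is carried by stem cells, germ cells and epithelia.

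Levels are given as log2 of the processed signal minus the array's 75th percentile, so that 0 is the signal that 75% of the array's probes lie below. These log2 levels cannot be set against each other between probes. The 75th percentile of the signal was 629 to 745.4, 70.3% to 73.3% of probes were well above background, and arrays correlated at 0.98 to 0.994. Dazl, the target, had a signal of 1570 on the day 9 control array and 4190 on the day 12 control array, against 79.3 to 178 on the 4 knockdown arrays. The 13 germ cell markers measured summed to 116.2 to 132 times the array's 75th percentile on the 6 arrays. This sum includes the member Kit, the target Dazl, and Pou5f1, the gene of the Oct4 reporter on which cells were sorted. Alpl gave its highest signals, 18100 to 27700, and Nanos3 its lowest, 21 to 51.3. An epithelium list of 7 genes summed to 175.6 to 319.3. Of 10 blood markers, Ptprc, Spi1, Cpa3 and Hba-x were not well above background on any array. The other 6 (Gata1, Gata2, Tal1, Itga2b, Runx1 and Hbb-bh1) were well above it on 5 or 6 arrays and summed to at most 1.47 times the 75th percentile. The day 9 array of hairpin 2 had the highest level of the brighter Kitl probe, of 3 Lifr probes and of Il6st and the lowest of Cdh1.

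Both ligands were lower on the day 12 arrays than on the day 9 arrays, while the differences of the receptors Kit and Cxcr4 lay between -0.18 and 0.17 on the log2 scale. The day 9 samples were all on 1 slide and the day 12 samples on another, and the effects of day and slide cannot be told apart. With limma's moderated test and Benjamini-Hochberg adjustment over 30190 probes, 0 of 13 member probes passed an adjusted p of 0.05 for day 12 against day 9, where 0.0563% of all probes passed, 0.0497% higher and 0.00662% lower. Before adjustment, 5 of 13 were lower with p under 0.05 and 0 higher, against 4.2% of all probes lower. The day groups did not overlap for 7 of 13 probes, all lower at day 12, against 7.58% of all probes lower and 8.68% higher. A replicate block for the vector pairs the arrays of 1 vector across the days, and with it 2 of 13 member probes passed, both of Cxcl12 and both lower. In that fit 0.812% of all probes passed, 0.0795% lower. Within all 3 vectors 10 of 13 probes were lower at day 12, against 18.5% of all probes, and 1, that of Kit, was higher, against 20.4%. These counts include a dimmer Kitl probe that was mostly not above background. They also count several probes of 1 gene, which are not independent. The 7 probes without overlap were of Lifr, Cxcl12 and Kitl, as were the 5 with p under 0.05.

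The 250 bases before the transcription start of Kitl and Cxcl12 are shown because these are the genes whose day groups stood furthest apart. They were read from RefSeq for GRCm38.p6, on the plus strand, at chr10:100015571-100015820 for Kitl and chr6:117168285-117168534 for Cxcl12. Capitals mark the letters of a GC box, GGGCGG or CCGCCC on the other strand, and of a TATA box, TATAAA or TTTATA on the other strand.
Kitl: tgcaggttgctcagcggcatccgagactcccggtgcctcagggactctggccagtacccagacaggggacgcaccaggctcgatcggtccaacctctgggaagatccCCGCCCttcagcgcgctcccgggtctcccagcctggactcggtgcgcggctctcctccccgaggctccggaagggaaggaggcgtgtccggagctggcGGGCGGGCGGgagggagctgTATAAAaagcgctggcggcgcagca
Cxcl12: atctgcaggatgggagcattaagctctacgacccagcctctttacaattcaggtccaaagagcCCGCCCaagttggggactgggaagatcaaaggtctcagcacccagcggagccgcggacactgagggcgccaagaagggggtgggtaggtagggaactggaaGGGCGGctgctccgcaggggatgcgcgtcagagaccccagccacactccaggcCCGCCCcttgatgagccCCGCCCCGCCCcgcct
The Kitl window holds 3 GC boxes, of which 2 overlap, and 1 TATA box that starts 25 bases before the transcription start. The Cxcl12 window holds 5 GC boxes, between 187 and 11 bases before the start, of which 2 overlap, and 0 TATA boxes. Of 32851 such windows, 32.7% hold a GC box and 12.4% a TATA box. The windows of Kit and Il6st hold 1 GC box each, and that of Cxcr4 holds 3 GC boxes. It also holds 2 TATA box matches that overlap, 32 and 30 bases before the start, which are 1 site read on both strands. These letters describe the windows and were not tested against the levels.

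Kitl encodes the ligand of KIT in a membrane-bound and a soluble form. Its brighter probe, A_51_P133936, had log2 levels of -3.32 with the control vector, -3.44 with hairpin 1 and -3.03 with hairpin 2 at day 9. At day 12 the levels were -4.12, -4.34 and -4.26 in the same order. All 3 day 12 arrays lay below all 3 day 9 arrays, and 10 spots of this probe had an SD of 0.0905 to 0.145 on the log2 scale within an array. The day 9 mean was -3.26 ± 0.21 (SD, n = 3) and the day 12 mean -4.24 ± 0.11 (SD, n = 3). The limma difference was -0.98 (SE 0.17, 95% interval -1.38 to -0.57), a 1.97-fold lower signal at day 12, with an adjusted p of 0.134 in limma. Of all probes, 0.364% were as low by this measure. With the vector as a block the adjusted p was 0.069, still above the threshold. Without the day 9 array of hairpin 2 the difference was -0.83.

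The dimmer Kitl probe, A_52_P572571, was well above background on the control and hairpin 1 arrays of day 9, at log2 levels of -6.26 and -6.66. It was not well above background on the other 4 arrays. No fold between the days is given for it. The brighter probe was lower at day 12 within each vector, with differences of -0.80, -0.90 and -1.23 for control, hairpin 1 and hairpin 2.

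Cxcl12 encodes the chemokine that guides migrating germ cells. The array's annotation ties its probes to different transcript variants, and both gave the widest day differences among the members. Probe A_51_P172502 had log2 levels of -0.65, -0.28 and -0.63 at day 9 and -1.88, -1.70 and -1.54 at day 12, for control, hairpin 1 and hairpin 2. The day groups did not overlap, with means of -0.52 ± 0.21 (SD, n = 3) and -1.71 ± 0.17 (SD, n = 3). The limma difference was -1.19 (SE 0.15, 95% interval -1.57 to -0.81), a 2.28-fold lower signal at day 12, with an adjusted p of 0.100 in limma. With the vector as a block this adjusted p was 0.0494, past the threshold.

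Cxcl12 probe A_52_P685021 was dimmer, at -4.79, -4.52 and -4.64 at day 9 and -6.57, -5.91 and -5.74 at day 12. The day 12 control array was not well above background, so 2 of the 3 day 12 arrays measured it. Again no day 12 array reached a day 9 level. The limma difference was -1.42 (SE 0.17, 95% interval -1.83 to -1.01), a 2.68-fold lower signal, with an adjusted p of 0.0905 in limma and 0.0409 with the vector as a block. For these probes 0.166% and 0.0662% of all probes lay as low. Within each vector the differences were -1.23, -1.42 and -0.91 for the first probe and -1.78, -1.39 and -1.10 for the second, where the first of these is against the array not well above background. With normexp background correction the day differences were -1.003 and -0.53 for the Cxcl12 probes and -0.62 for the brighter Kitl probe. Their adjusted p-values were 0.268, 0.654 and 0.654 in limma. That correction added an offset of 50 to the signals, which narrows the log2 differences of dim probes. Processed signals were 7.37 to 29.9 for the dimmer Cxcl12 probe and 33.22 to 91.34 for this Kitl probe.

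**Figure D1:**
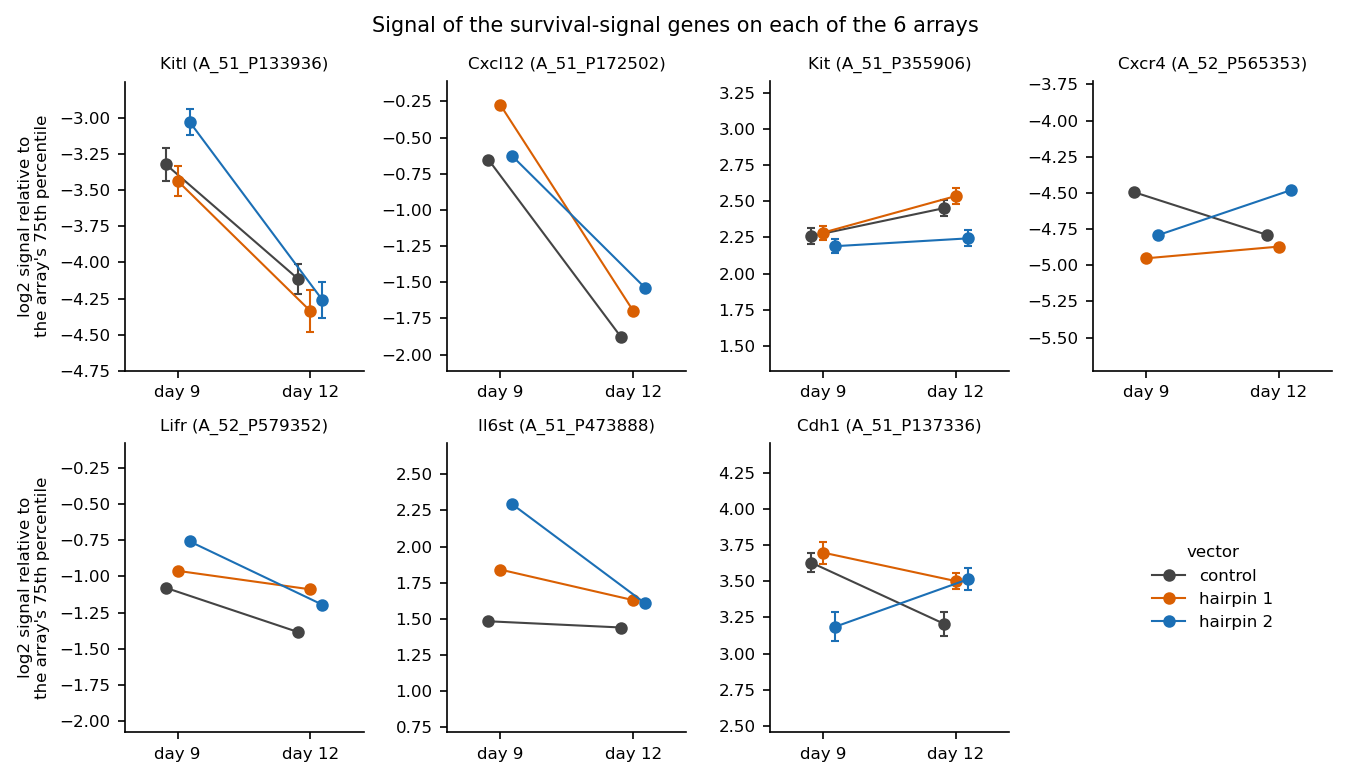
Log2 signal relative to the array's 75th percentile for 1 probe per gene, by day, with a colour per vector; lines join the arrays of 1 vector, and bars show the SD over the 10 spots of a probe for Kitl, Kit and Cdh1. Every panel spans the same number of log2 units around its own mean, and Kitl and Cxcl12 have no day 12 point at a day 9 level.

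Genes of fibroblasts and other mesenchyme, which make both ligands in the embryo, were listed to be set beside these values. The summed signal of this list, in units of the array's 75th percentile, was 12.96, 14.11 and 17.07 at day 9 and 7.444, 10.6 and 17.07 at day 12 for control, hairpin 1 and hairpin 2. Of its 12 genes, 6 were higher and 6 lower at day 12, with a median log2 difference of 0.02 against 0.00 over all probes, and 0 passed in limma. Of the 12, 2 had an unadjusted p under 0.05, as did 10.7% of all probes. Collagen genes Col1a1 and Col1a2 differed by -0.82 (SE 0.38) and -1.35 (SE 0.36), with adjusted p-values of 0.523 and 0.269 in limma. Lum, a matrix proteoglycan gene, was well above background on 4 arrays, Dcn on 5 and Lox on 3. The endothelial list summed to 1.15 to 1.68 at day 9 and 1.61 to 1.76 at day 12, and the gonadal somatic list to 0.46 to 0.52 and 0.46 to 0.55. The part of these cell types in the ligand difference was not tested.

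Kit, the receptor of KITL, kept a narrow range of levels. Its probe, A_51_P355906, had log2 levels of 2.26, 2.28 and 2.19 at day 9 and 2.45, 2.54 and 2.24 at day 12, for control, hairpin 1 and hairpin 2. The array of hairpin 1 at day 12 was the highest and that of hairpin 2 at day 9 the lowest, and the day groups overlapped. The levels spanned 0.35, and the 10 spots of the probe had an SD of 0.0482 to 0.0553 within an array. Signals before scaling were 3010 to 3971. The day difference was 0.17 (SE 0.14, 95% interval -0.19 to 0.52), with an adjusted p of 0.731 in limma. That interval lies wholly above the one for the brighter Kitl probe.

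Cxcr4, the receptor of CXCL12, was dim on the array but well above background on all 6 arrays by both probes. Probe A_52_P565353 had log2 levels of -4.50, -4.95 and -4.79 at day 9 and -4.79, -4.87 and -4.48 at day 12. Probe A_52_P585124 had -4.83, -5.17 and -4.72 at day 9 and -5.24, -5.27 and -4.76 at day 12. The day groups overlapped for both probes. The day difference was 0.03 (95% interval -0.42 to 0.49, adjusted p 0.961 in limma) for the first and -0.18 (95% interval -0.70 to 0.34, adjusted p 0.796 in limma) for the second. The sign of the first turned with the scaling, to -0.27 with normexp background correction, -0.06 with quantile normalization and -0.02 in the authors' deposited table.

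In each vector the day difference of the ligand lay below that of its receptor. Kitl differed from Kit in its day 12 minus day 9 value by -0.99 with the control vector, -1.15 with hairpin 1 and -1.29 with hairpin 2, a mean of -1.14 ± 0.15 (SD, n = 3). Cxcl12 differed from Cxcr4 by -0.93, -1.50 and -1.22 with the first Cxcr4 probe, a mean of -1.22 ± 0.29 (SD, n = 3). With the second Cxcr4 probe the values were -0.82, -1.33 and -0.87, a mean of -1.01 ± 0.28 (SD, n = 3). These are differences of log2 differences, which set no probe's level against another's. They carry no test of their own.

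**Figure D2:**
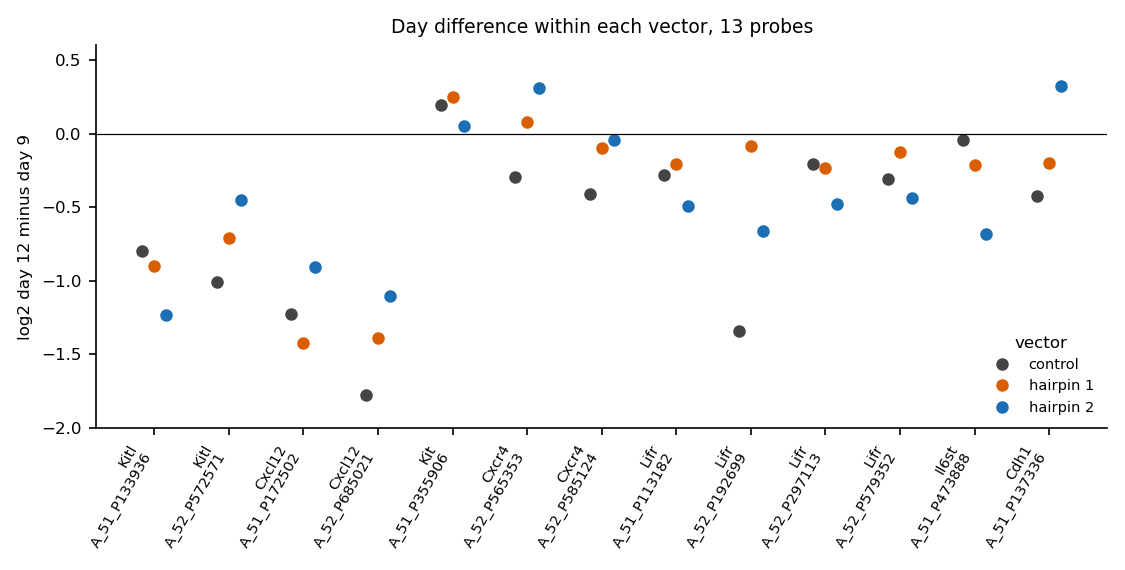
Log2 day 12 minus day 9 within each vector for the 13 probes, with a point per vector and a line at 0. The points of Kitl A_51_P133936 and Cxcl12 A_51_P172502 lie between -0.80 and -1.42. The points of Kitl A_52_P572571 and the control point of Cxcl12 A_52_P685021 involve arrays not well above background. The points of Kit and Cxcr4 lie between -0.41 and 0.31.

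LIF signals through a receptor of the LIFR and IL6ST chains. All 4 Lifr probes were lower at day 12 and their day groups did not overlap, as was so for 7.58% of all probes. Probe A_51_P113182 had log2 levels of -1.52, -1.54 and -1.22 at day 9 and -1.79, -1.75 and -1.71 at day 12. Probe A_52_P297113 had -1.84, -1.76 and -1.40, then -2.04, -1.99 and -1.88. Probe A_52_P579352 had -1.08, -0.96 and -0.76, then -1.38, -1.09 and -1.20. For these 3 probes the limma differences were -0.32, -0.31 and -0.29, with adjusted p-values of 0.511, 0.562 and 0.525 in limma.

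The remaining Lifr probe, A_52_P192699, had -1.79, -2.09 and -2.07 at day 9 and -3.13, -2.17 and -2.74 at day 12. Its lowest array was the day 12 control, and its difference of -0.69 (SE 0.26) had an adjusted p of 0.429 in limma. The 4 probes share 1 gene and are not independent, and this probe gave the widest value. Without either control array its difference was -0.37.

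Il6st, the shared gp130 chain, had log2 levels of 1.48, 1.84 and 2.29 at day 9 and 1.44, 1.63 and 1.61 at day 12. The day groups overlapped, and the day 9 array of hairpin 2 stood above the rest. Its difference was -0.31 (SE 0.18, 95% interval -0.76 to 0.13, adjusted p 0.611 in limma), and -0.15 without that array.

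Cdh1 encodes the adhesion protein of epithelia and stem cells. Its probe, A_51_P137336, had log2 levels of 3.63, 3.70 and 3.18 at day 9 and 3.20, 3.50 and 3.51 at day 12. The control array was higher at day 9 and the hairpin 2 array higher at day 12, and the day groups overlapped. The day difference was -0.10 (95% interval -0.58 to 0.38, adjusted p 0.888 in limma), and the SD over 10 spots within an array was 0.0542 to 0.0990.

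Dazl knockdown was the other comparison of the design, and none of the 13 probes passed it. In the limma fit with day as a term, 0.00662% of all probes passed. The brightest probe of Dazl, the target, differed by -4.30 (SE 0.29). It did not pass either, with an adjusted p of 0.0547 in limma. At an unadjusted p under 0.05, 1 of 13 member probes was higher, against 4.35% of all probes, and 0 lower. In both directions 9.88% of all probes reached this. By sign alone, 4 probes were lower and 9 higher, with a median of 0.10 against -0.02 over all probes.

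Kit was at a log2 difference of -0.04 (SE 0.15, 95% interval -0.42 to 0.33, adjusted p 0.957 in limma), and Kitl at -0.05 (adjusted p 0.961 in limma) by its brighter probe. Within day 9 the Kit arrays of hairpin 1 and hairpin 2 lay 0.02 above and 0.07 below control, and within day 12 0.08 above and 0.21 below it. The dimmer Kitl probe gave -0.54 (SE 0.27, adjusted p 0.571 in limma) and read lower in all 4 knockdown arrays than in the control array of the same day, as did 19.1% of all probes. Only the control and hairpin 1 arrays of day 9 were well above background, so only their difference of -0.39 was measured on both sides.

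Cxcl12 was higher in all 4 knockdown arrays than in the control of the same day by both probes. The brighter probe was higher by 0.38 and 0.02 at day 9 and by 0.18 and 0.34 at day 12, for hairpin 1 and hairpin 2. The dimmer one was higher by 0.27, 0.15, 0.66 and 0.83. The limma differences were 0.23 (SE 0.16, adjusted p 0.689) and 0.48 (SE 0.18, unadjusted p 0.0365, adjusted p 0.479). The second value was 0.21 without the day 12 control array and 0.75 without the day 9 control array. At day 12 the dimmer probe read 1.68-fold higher in the knockdown arrays, against a control array that was not well above background. In all, 5 of 13 probes were higher in all 4 pairs, the 2 of Cxcl12, the Lifr probes A_52_P297113 and A_52_P579352, and Il6st, against 14.9% of all probes. By the fitted difference, all 12 genes of the fibroblast and mesenchyme list were higher in the knockdown. Their median log2 difference was 0.70 against -0.02 over all probes. Not every pair was higher, as Pdgfra read lower with hairpin 2 than with the control vector at both days. At day 9 Col1a2, Dcn and Thy1 also read lower than control with hairpin 1, and Pdgfrb with hairpin 2, relative to the array's 75th percentile. None of the 12 passed in limma, and 5 had an unadjusted p under 0.05, against 9.88% of all probes. The 12 and the 5 include Lox, well above background on 3 arrays, and its 3 brightest arrays were knockdown arrays. Lox signals were 4.08 and 1.93 in the control arrays and 6.69 to 15.4 in the knockdown arrays. Between the hairpins, 10 of the 12 were higher and 2 lower with hairpin 2. The median of that difference was 0.74 against 0.01 over all probes. The list's sum was 7.44 to 12.96 in control and 10.6 to 17.07 in knockdown arrays, which overlap when the days are pooled. Within each day both hairpin arrays lay above the control. They stood at 14.11 and 17.07 against 12.96 at day 9, and at 10.6 and 17.07 against 7.444 at day 12. Of 8 endoderm markers tested, 7 were higher and 1 lower in the knockdown, with a median of 0.88. The 7 and the median include Cer1, well above background on only 2 arrays. Cer1 signals were 12.5 and 38.5 with hairpin 2 at day 9 and day 12. On the control and hairpin 1 arrays they were 1.42 to 2.98, so its direction for hairpin 1 is not given. None of the 8 markers passed in limma. Of these, 4 had an unadjusted p under 0.05, against 9.88% of all probes, and Cer1 was not among them. The endoderm sum was 1.28 to 1.44 in control and 2.05 to 3.09 in knockdown arrays, which do not overlap, and Ttr was not well above background on any array. The part of both lists in the knockdown values of the members was not tested.

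Cxcr4 was at -0.13 (adjusted p 0.871 in limma) by the first probe and 0.05 (adjusted p 0.964 in limma) by the second. The pairs lay at -0.46, -0.30, -0.08 and 0.31 for the first probe and at -0.34, 0.11, -0.02 and 0.48 for the second, for hairpin 1 and 2 at day 9 and then day 12. The authors' deposited table places Cxcr4 on chromosome 1, whose 1397 probes had a median of -0.24 and -0.28 in the day 9 pairs and -0.19 and -0.16 in the day 12 pairs. The part of that shift in the Cxcr4 values was not tested.

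Il6st was higher in all 4 pairs, by 0.36, 0.81, 0.19 and 0.17, a difference of 0.38 (SE 0.19, 95% interval -0.09 to 0.85, adjusted p 0.580 in limma). The hairpin 2 array of day 9 gave the widest of these, and without it the difference was 0.26. It was 0.18 without the day 9 control array and 0.58 without the day 12 control array. Lifr lay at 0.10 by probe A_51_P113182, 0.19 by A_52_P192699, 0.18 by A_52_P297113 and 0.23 by A_52_P579352. Cdh1 was at 0.06 (adjusted p 0.958 in limma), with pairs of 0.07, -0.44, 0.29 and 0.31. The intervals reached as far as 0.85 for Il6st and 0.57 for Cdh1, so shifts up to those sizes are not excluded.

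The hairpins were also set against each other. Of all probes 0.00331% passed for hairpin 2 against hairpin 1 in limma, that probe being lower with hairpin 2, and 0 of 13 member probes passed. Cxcr4 probe A_52_P585124 was higher with hairpin 2 at both days, by 0.45 and 0.50, with a difference of 0.47 (SE 0.18, unadjusted p 0.0439, adjusted p 0.459 in limma), and 30.5% of all probes were higher at both days. The dimmer Kitl probe read lower with hairpin 2 at both days, as did 27.8% of all probes, with a difference of -0.60 (SE 0.20, unadjusted p 0.0266, adjusted p 0.404 in limma). For it 3 of the 4 hairpin arrays were not well above background, and the difference was 0.47 with normexp, so no direction is given.

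**Figure D3:**
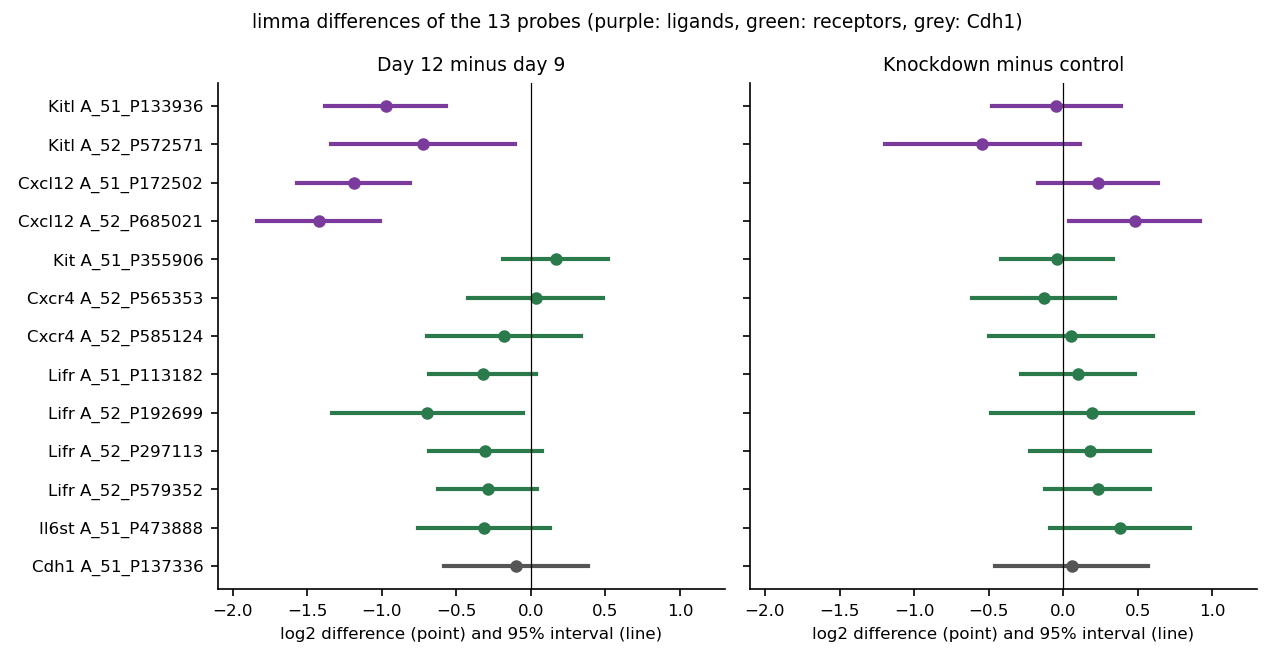
limma log2 differences with 95% intervals for the 13 probes, day 12 minus day 9 on the left and knockdown minus control on the right. On the left the Cxcl12 intervals end at -0.81 and -1.01, while on the right all intervals cross 0 but that of Cxcl12 probe A_52_P685021.

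Genes tied to signalling by these receptors, among them other ligands and receptors, and genes of cell adhesion were set beside the members as 4 lists. Each gene was represented by its brightest probe. No member of any list passed either comparison in limma. Their counts at an unadjusted p under 0.05 stand against 9.88% of all probes for the knockdown and 10.7% for the day. Of 21 measured Kit signalling genes, 11 were higher and 10 lower in the knockdown, with a median of 0.00, and 0 had an unadjusted p under 0.05. At day 12, 7 were higher and 14 lower, with a median of -0.10 against 0.00 over all probes, and 2 had an unadjusted p under 0.05. Among the widest values in the knockdown were Mitf, a transcription factor of melanocytes and mast cells, at -0.76 (SE 0.53), and Src at 0.34 (SE 0.15). At day 12 they included Mitf at 1.44 (SE 0.50) and Socs1, a cytokine signalling inhibitor, at 0.52 (SE 0.22).

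Of 21 measured genes of CXCL12 signalling, 8 were higher and 13 lower in the knockdown, with a median of -0.02, and 2 had an unadjusted p under 0.05. These were the chemokine gene Cxcl14, at 0.66 (SE 0.21), and Dpp4, whose protease trims CXCL12, at 0.52 (SE 0.16), followed in size by Rgs16 at 0.32. At day 12, 14 were higher and 7 lower, with a median of 0.03, and 5 had an unadjusted p under 0.05. The largest were Cxcr3 at 0.72 (SE 0.28), Dpp4 at 0.71 (SE 0.15, adjusted p 0.186 in limma) and Rgs16 at -0.55 (SE 0.16, adjusted p 0.307 in limma). Cxcr3 was well above background on 5 arrays.

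Of 25 measured genes of LIF and gp130 signalling, 14 were higher and 11 lower in the knockdown, with a median of 0.08, and 1 had an unadjusted p under 0.05. The widest were the pluripotency gene Klf5 at 0.65 (SE 0.23), Bcl3 at 0.62 (SE 0.25) and Pias3, an inhibitor of STAT3, at 0.53 (SE 0.33). At day 12 the same number were higher and lower, with a median of 0.07, and 1 had an unadjusted p under 0.05. Osmr, the oncostatin M receptor, was at 0.61 (SE 0.27) and Pias3 at -0.58 (SE 0.32).

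Of 23 adhesion genes, 11 were higher and 12 lower in the knockdown, with a median of -0.03, and 3 had an unadjusted p under 0.05. Tjp1, a tight junction scaffold, was at -0.67 (SE 0.19), Zeb2, a repressor of Cdh1, at 0.57 (SE 0.14) and the claudin gene Cldn6 at -0.52 (SE 0.20). At day 12, 8 were higher and 15 lower, with a median of -0.08, and 2 had an unadjusted p under 0.05. The widest were the endothelial cadherin Cdh5 at 1.60 (SE 0.64, adjusted p 0.458 in limma), Cldn6 at -0.89 (SE 0.19, adjusted p 0.187 in limma) and the plakoglobin gene Jup at -0.50.

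**Figure D4:**
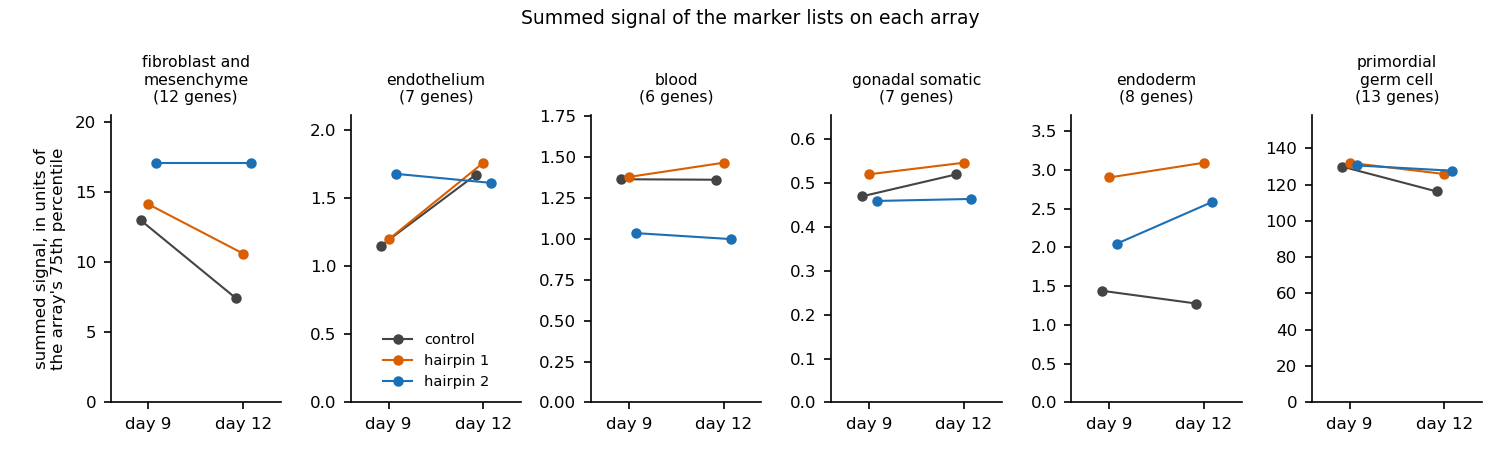
Summed signal of 6 marker lists on each array, in units of the array's 75th percentile, by day with a colour per vector. Fibroblast and mesenchyme genes range from 7.444 to 17.07 and overlap between the days, while the germ cell list lies between 116.2 and 132.

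Genes most like a member in pattern over the 6 arrays were listed as a description. They share the arrays, and the 3 arrays of a day share a slide. Kit correlated at Pearson r of 0.996 with the kinase gene Wnk1, 0.986 with Ccdc78 and 0.98 with Dcaf12, and 69 of 23661 candidate probes exceeded 0.9. Kitl correlated at 0.996 with 4930415O20Rik, 0.993 with Tjp3 and 0.991 with Dnajc28, with 190 of 11842 candidates above 0.9. Cxcr4 correlated at 0.975 with Lrrc3b, 0.969 with Tbx1 and 0.967 with Pole4, with 60 of 23057. Cdh1 correlated at 0.993 with Dbp and 0.991 with the pluripotency gene Esrrb, with 367 of 22748.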

How the data were processed

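Total RNA of 6 samples was measured on Agilent 1-colour arrays. Per the file headers, the deposited intensity values came from Feature Extraction 9.1.3.1, with detrending and background subtraction and no normalization between arrays. Values in the authors' deposited table are a ratio: background-subtracted signal over 1 constant per array, with a column median of 1. A quality score per spot in the deposited files served only to match entries. Flagged outlier spots were left out and spots of a probe averaged. Signals were taken to log2 and each array's 75th percentile set to 0. Of 30214 probes that passed the filter, 24 lacked a value on some array and 30190 were tested with limma 3.58.1 in R 4.3.3, two-sided, with Benjamini-Hochberg adjustment at 0.05. The knockdown and day comparisons came from 1 fit with day and knockdown as terms. Hairpins are numbered as in the sample titles; the deposited scanner files number them differently. Separate fits gave hairpin 2 against hairpin 1 and the difference of the knockdown effect between days. The script was tested on simulated data. On each slide the vectors had the same positions (control 2, hairpin 1 3, hairpin 2 4), and the effects of vector and position cannot be told apart.

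The labels give the same 3 vectors at both days. Deviations from the day mean correlated at 0.37, 0.50 and 0.24 for the same vector against -0.31 to -0.04 for different ones. Vector was therefore also fitted as a block. The 3 deviations of a day sum to 0, which draws the values for different vectors below 0 when those for the same vector lie above it. The members and lists were chosen with earlier results of these data known. Named genes were the members, the 3 list genes of widest difference per comparison, and the 3 genes of most like pattern for Kit, Kitl, Cxcr4 and Cdh1; some genes that this rule names are not reported here. Gene names came from the array's annotation, updated through a RefSeq table by accession for 22944 probes and by symbol or synonym for 9759. The number of arrays limits the precision.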

Additional observations from a re-analysis of the deposited data

Results flagged for a closer look

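The Lifr probe A_52_P192699 had knockdown differences of opposite sign at the 2 days: -0.30 and -0.29 at day 9 for hairpin 1 and hairpin 2, and 0.96 and 0.40 at day 12. The difference of the knockdown effect between days was 0.97 (SE 0.44, adjusted p 0.9999 in limma; unadjusted p 0.0777). Across all probes, 13.7% had pairs of opposite sign at the 2 days, and the other 3 Lifr probes did not show it.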

How the results depend on the processing

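For the members, 161 of 174 values for knockdown against control and 164 of 174 for day 12 against day 9 kept their direction and their side of the threshold under the alternatives run; 2 of the day values, both of Cxcl12, passed once the vector was a replicate block, and no other member call changed with it. In the knockdown comparison the sign turned with normexp for Kitl A_51_P133936 (0.15), Kitl A_52_P572571 (0.23) and Cxcr4 A_52_P565353 (0.18), where normexp moved the median of all probes by 0.139, from -0.02 to 0.119. In the day comparison Cxcr4 A_52_P565353 was -0.27 with normexp, -0.063 with quantile normalization and -0.016 in the authors' deposited table, and normexp moved the median of all probes by -0.143, to -0.14; there Cxcl12 A_51_P172502 was -1.003, Cxcl12 A_52_P685021 -0.53 and Kitl A_51_P133936 -0.62, against -1.19, -1.42 and -0.98. In the hairpin comparison Kitl A_52_P572571 was 0.47 with normexp against -0.60, and Cxcr4 A_52_P585124 was 0.47 in the fit. Normexp was run with an offset of 50, which narrows the log2 differences of dim probes. The cause of the turned signs was not tested.

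Leaving out 1 array at a time gave, for the knockdown, Cxcl12 A_52_P685021 0.21 to 0.75, Il6st 0.18 to 0.58, Kitl A_51_P133936 -0.18 to 0.089, Cdh1 -0.19 to 0.30, Kit -0.10 to 0.023, Lifr A_52_P192699 -0.29 to 0.68, Cxcr4 A_52_P565353 -0.38 to 0.11 and Cxcr4 A_52_P585124 -0.12 to 0.23, and for the day Cdh1 -0.29 to 0.065 and Cxcr4 A_52_P565353 -0.13 to 0.20. The knockdown comparison called 2 probes, 1 in the authors' table, 4 with the vector block, 0 with one probe per gene, and 0 to 1 without 1 array. The day comparison called 17, 1 with normexp, 11 with quantile normalization, 0 without a filter, 6 in the authors' table, 245 with the vector block, 4 with a trended robust prior, 30 with one probe per gene, and 0 to 3 without 1 array; the member probes called went from 0 to 2 with the vector block. Hairpin 2 against hairpin 1 called 1 probe, 91 with normexp, 3 with a strict filter, 0 without a filter, and 0 to 1560 without 1 array. The number of arrays limits these comparisons, and signals near background limit the dimmer Kitl and Cxcl12 probes.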

Other observations

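A probe that the array's annotation names AK019683, whose description calls its product leukemia inhibitory factor, lies outside the member rule and was picked after its values were seen. Its signal was 288, 275 and 509 at day 9 and 281, 234 and 338 at day 12 for control, hairpin 1 and hairpin 2, and it was well above background on all 6 arrays.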
